A study of Mus musculus with 36 samples.

Results

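The constitutive proteasome was described here through 44 of the 24883 rows shared by both expression tables of an RNA sequencing study of the mouse suprachiasmatic nucleus (SCN). The members were the rows whose symbol begins with Psma, Psmb, Psmc, Psmd, Psme, Psmf or Psmg and a digit, with a mean value of at least 1 over 36 libraries after each library was rescaled to a sum of 1000000. Of 50 rows with such a symbol, 3 were left out by name as immunoproteasome subunits (Psmb8, Psmb9 and Psmb10) and 3 fell below the minimum. The members nearest above it were Psmc3ip, at a mean of 6.17, and Psme4, at 15.1, and the rows below it were Psme2b (0.623), Psma8 (0.408) and Psmb11 (0.0949). Psmc3ip shares the symbol pattern but encodes a meiotic recombination factor, so 43 members are proteasome genes proper.

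Adult C57BL/6J mice received either normal chow or a high-fat diet over 10 weeks, and an SCN-enriched region was dissected from fresh brain at 6 times of day, labelled 0, 4, 8, 12, 16 and 20 and given as zeitgeber time (ZT) in the tables. Each of the 12 combinations of diet and time had 3 libraries, 18 per diet. The labels do not say whether the 3 came from separate animals, so p-values measure the spread between samples, which may be technical. Each diet was deposited as its own table, so table and diet cannot be told apart.

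The proteasome is the cell's main machine for breaking down proteins tagged with ubiquitin. Its 20S core is a barrel of alpha rings, which gate the entrance, and beta rings, which hold the catalytic sites, and the 19S particle on its end recognises ubiquitin, removes it and unfolds the substrate with a ring of ATPases. Dedicated chaperones assemble both parts, other caps can replace the 19S particle, and in mammals the transcription factor Nfe2l1 raises subunit transcription together through antioxidant response elements when proteasome activity is low.

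Promoters are shown for Psma7, the member that passed the rhythm test, for the catalytic subunits Psmb5 and Psmb6, and for Psmd12, the member with the smallest p for diet at ZT 16. The windows, from RefSeq on GRCm38.p6, run from 250 bases before to 50 bases after the gene's start and are printed 5′ to 3′ on the gene's strand. Capitals mark every match, on either strand, to TGACNNNGC (the core of the antioxidant response element) or to CCAAT (the CCAAT box).
Psma7: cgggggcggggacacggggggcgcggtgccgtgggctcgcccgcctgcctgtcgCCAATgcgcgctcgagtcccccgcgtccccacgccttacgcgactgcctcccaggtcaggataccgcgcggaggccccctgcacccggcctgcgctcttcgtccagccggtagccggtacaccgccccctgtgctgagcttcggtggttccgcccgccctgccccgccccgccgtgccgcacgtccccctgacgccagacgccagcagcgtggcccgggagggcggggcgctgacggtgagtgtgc
Psmb5: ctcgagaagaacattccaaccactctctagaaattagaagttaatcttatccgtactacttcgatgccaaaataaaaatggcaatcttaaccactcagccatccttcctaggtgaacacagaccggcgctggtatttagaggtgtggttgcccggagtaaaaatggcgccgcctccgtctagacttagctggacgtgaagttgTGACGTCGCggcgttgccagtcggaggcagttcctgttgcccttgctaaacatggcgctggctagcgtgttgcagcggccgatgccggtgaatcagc
Psmb6: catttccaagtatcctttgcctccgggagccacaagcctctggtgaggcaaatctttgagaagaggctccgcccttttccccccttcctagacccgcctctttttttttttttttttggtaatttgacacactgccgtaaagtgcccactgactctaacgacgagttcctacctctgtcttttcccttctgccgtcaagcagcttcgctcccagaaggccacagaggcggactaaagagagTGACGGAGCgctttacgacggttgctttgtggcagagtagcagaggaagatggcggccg
Psmd12: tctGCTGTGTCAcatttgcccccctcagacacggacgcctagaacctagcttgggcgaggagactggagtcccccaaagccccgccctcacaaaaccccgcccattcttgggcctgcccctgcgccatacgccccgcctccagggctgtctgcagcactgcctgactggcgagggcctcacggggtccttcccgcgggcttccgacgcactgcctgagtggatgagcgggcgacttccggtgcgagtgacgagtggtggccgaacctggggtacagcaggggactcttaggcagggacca
Psma7 lies at chr2:180042415-180042714 on the minus strand and Psmb5 at chr14:54617946-54618245 on the minus strand. The windows of Psmb6 (chr11:70525107-70525406) and Psmd12 (chr11:107479278-107479577) are on the plus strand. In Psma7 the capitals are a CCAAT box whose first base lies 196 bases before the start, and in the other windows they are the TGACNNNGC core, 47 bases before the start in Psmb5, 9 in Psmb6 and 247 in Psmd12. RefSeq windows matched 36 of the 43 proteasome members. On either strand, TGACNNNGC was present for 6 of the 36 (16.7%), in Psmb5, Psmb6, Psmc6, Psmd12, Psmd9 and Psme4, against 13.99% of 27025 genes with a window of the same length. CCAAT was found for 12 (33.3%, against 41.1%), the GC box GGGCGG for 22 (61.1%, against 38.2%), the E-box CACGTG for 3 (8.33%, against 8.09%) and the heat shock element core GAANNTTC for 2 (5.56%, against 9.04%). A match is a description of these letters, not a binding site.

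Deposited FPKM summed to between 302900 and 432340 per library, and reads per library are not given, so depth is unknown. All 12 SCN marker genes were above 0 in every library, but their summed rescaled value ran from 341 to 4510, and neuronal, glial, vascular and blood markers were present throughout. Both extremes were high-fat libraries, the lowest being replicate 2 at ZT 8. In bulk tissue, fewer cells of a type and less RNA per cell cannot be told apart. Chow replicate 1 at ZT 0 (5134), chow replicate 1 at ZT 4 (1146) and high-fat replicate 3 at ZT 0 (878) were rich in summed liver transcripts, against a median of 58.1. High-fat replicate 3 at ZT 16 (2740) and chow replicate 3 at ZT 12 (2121) were rich in striatal transcripts, against a median of 363. High-fat replicate 2 at ZT 8 stood apart by transcript length. Across all tested rows, its 746 rows under 1000 nt had a median of -0.60 on the log2(value + 1) scale relative to each row's median over the libraries, and its 4791 rows over 4000 nt had 0.46. Shifts the other way were smaller. The largest were in high-fat replicate 3 at ZT 20 (0.20 and -0.40) and chow replicate 2 at ZT 4 (0.13 and -0.34).

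All levels below are FPKM rescaled to 1000000 per library, which is a level per transcript length. Among the 7 beta subunits of the 20S core, Psmb4, a structural subunit, was highest at 358 on average, above its ring partners in 33 of 36 libraries. Psmb2 was lowest at 191 (lowest in 35 of 36). The catalytic subunits lay between them. Psmb7, with trypsin-like activity, ranged from 246 to 387 with a median of 332 (335 ± 20.8 under chow and 323 ± 35.2 under high-fat diet, SD, n = 18 each). Psmb5, with chymotrypsin-like activity, ranged from 119 to 317 with a median of 271 (274 ± 17.8 and 266 ± 41.8). Psmb6, with caspase-like activity, ranged from 178 to 312 with a median of 270.01 (272 ± 17.3 and 265 ± 31.4). The lowest value of all 3 catalytic subunits came from the same library, high-fat replicate 2 at ZT 8.

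The alpha ring ran from Psma6, at a mean of 287, to Psma1 at 136. Psma6 did not lead the ring beyond the spread: it was highest in 20 of 36 libraries, with Psma2 close behind at a mean of 283. In the 19S ATPase ring, Psmc5 stood at 348 and was the highest of its ring in 36 of 36 libraries, while Psmc6, at 127, was lowest in 28. Among the 11 non-ATPase subunits of the 19S particle, the ubiquitin receptor Psmd4 was highest at 199 (in 35 of 36 libraries). Psmd11, which helps hold the lid and the base together, was lowest at 71.0 (in 35 of 36). The deubiquitinase Psmd14, which cuts ubiquitin chains from the substrate, averaged 137. The 31 subunits of the 20S core and the 19S particle thus spanned 5.04-fold in mean level per length.

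Assembly chaperones were scarcer on average than all subunits of the 20S core and the 19S particle. Of the alternative regulators, only Psmf1 and Psme4 were. The 7 chaperones ran from Psmd5, a 19S chaperone, at 63.5 down to Psmd9, another, at 25.7. The 20S chaperones Psmg1 (35.1), Psmg2 (34.5), Psmg3 (34.2) and Psmg4 (30.1) lay close together. The PA28 cap subunits Psme1 and Psme2, which activate the 20S core without ubiquitin, averaged 145 and 106. Their nuclear relative Psme3 averaged 90.4, the proteasome inhibitor Psmf1 (PI31) 24.02 and the large cap Psme4 (PA200) 15.1. The immunoproteasome counterparts, which replace the catalytic subunits mostly in immune cells, were lower than the constitutive subunits in every library. The median ratio was 46.9 for Psmb5 to Psmb8 (24.5 to 56.9 over libraries), 56.5 for Psmb6 to Psmb9 (30.8 to 104) and 5.26 for Psmb7 to Psmb10 (4.62 to 7.13).

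**Figure D1:**
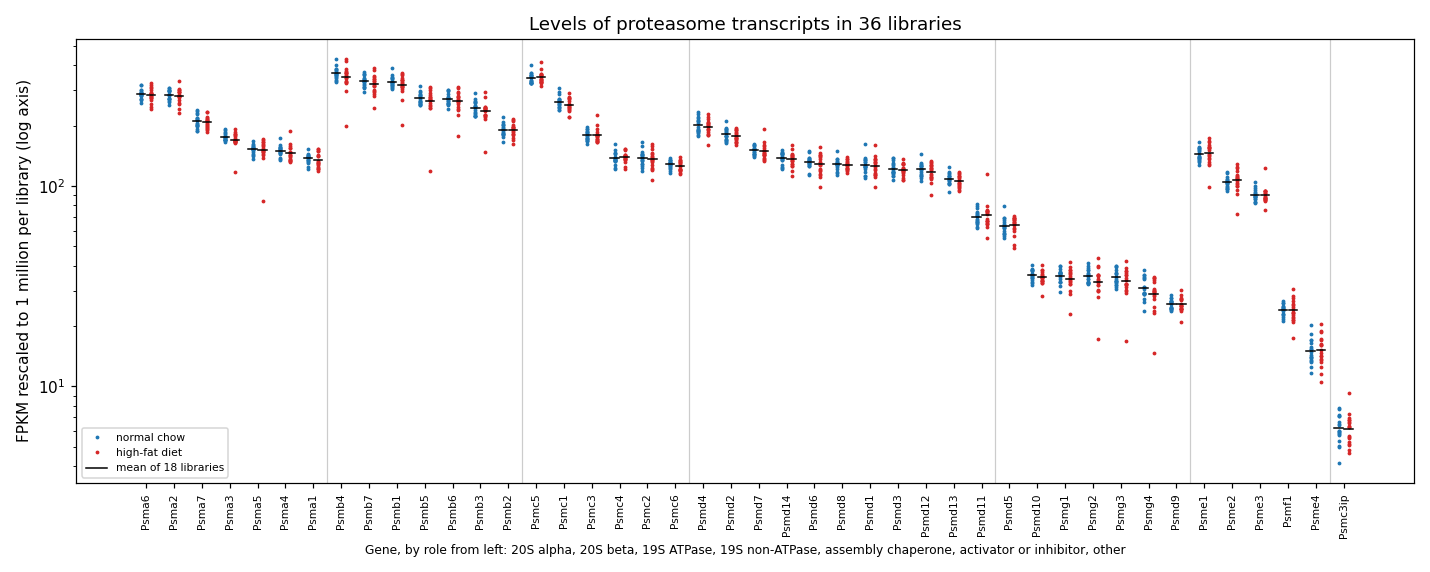
Level of each of the 44 members (FPKM rescaled to 1000000 per library, log axis) in 36 libraries, with genes ordered by role and then by mean. Points are libraries, blue for normal chow and red for high-fat diet, and bars are means of 18 libraries. Core subunits lie between 71.0 and 358 on average, chaperones between 25.7 and 63.5, and the single low red points of several beta and alpha subunits and of Psmg2, Psmg3 and Psmg4 belong to high-fat replicate 2 at ZT 8.

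The members varied little. For the 43 proteasome genes, the ratio of the highest to the lowest of the 12 group means had a median of 1.21, from 1.11 for Psmc3 to 1.57 for Psmg2, and was under 1.2 for 18. The SD between libraries of the same group had a median of 0.106 over the 44 members on the log2(value + 1) scale, against 0.188 over all 15173 tested rows and 0.173 over rows in the members' range of mean level. That range, from 6.17 (Psmc3ip) to 358 (Psmb4), held 11225 rows, which were not matched to the members by level. Under chow the median SD was 0.0809 against 0.166 over all rows, and under high-fat diet 0.135 against 0.204. The summed level of the 14 subunits of the 20S core ran from 2425 to 3875 with a median of 3370. That of 17 subunits of the 19S particle ran from 2332 to 2976 with a median of 2670. Mean level per subunit was 1.55 times as high in the 20S core as in the 19S particle (median of 36 libraries). The highest such ratio was 1.66 and the lowest was 1.05, in high-fat replicate 2 at ZT 8. These ratios describe transcripts and not assembled particles.

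That library changed the proportions within the group. All 7 beta subunits were below their own median there, by a median of -0.70 on the log2(value + 1) scale. Psmb5 deviated most, at -1.18, with a value of 119. The chaperones had a median of -0.62, with Psmg4 at -0.98, and the alpha subunits -0.22. The 19S non-ATPase subunits had a median of 0.13, with Psmd11 highest at 0.71 (115 in place of a median of 69.5). In all, 16 of the 43 proteasome genes had their lowest value of the 36 libraries there. Transcripts of the members ran from 555 nt (Psmg4) to 6491 nt, and the short ones were mostly the low ones in this library. In high-fat replicate 3 at ZT 16, by contrast, short and long rows had medians of -0.0027 and 0.04, while 40 of 43 proteasome genes were below their own median, by a median of -0.17. The sign was shared by all classes, with beta subunits at -0.25, the chaperones at -0.24 and 19S non-ATPase subunits at -0.16, and Psme4 stood apart at 0.45.

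**Figure D2:**
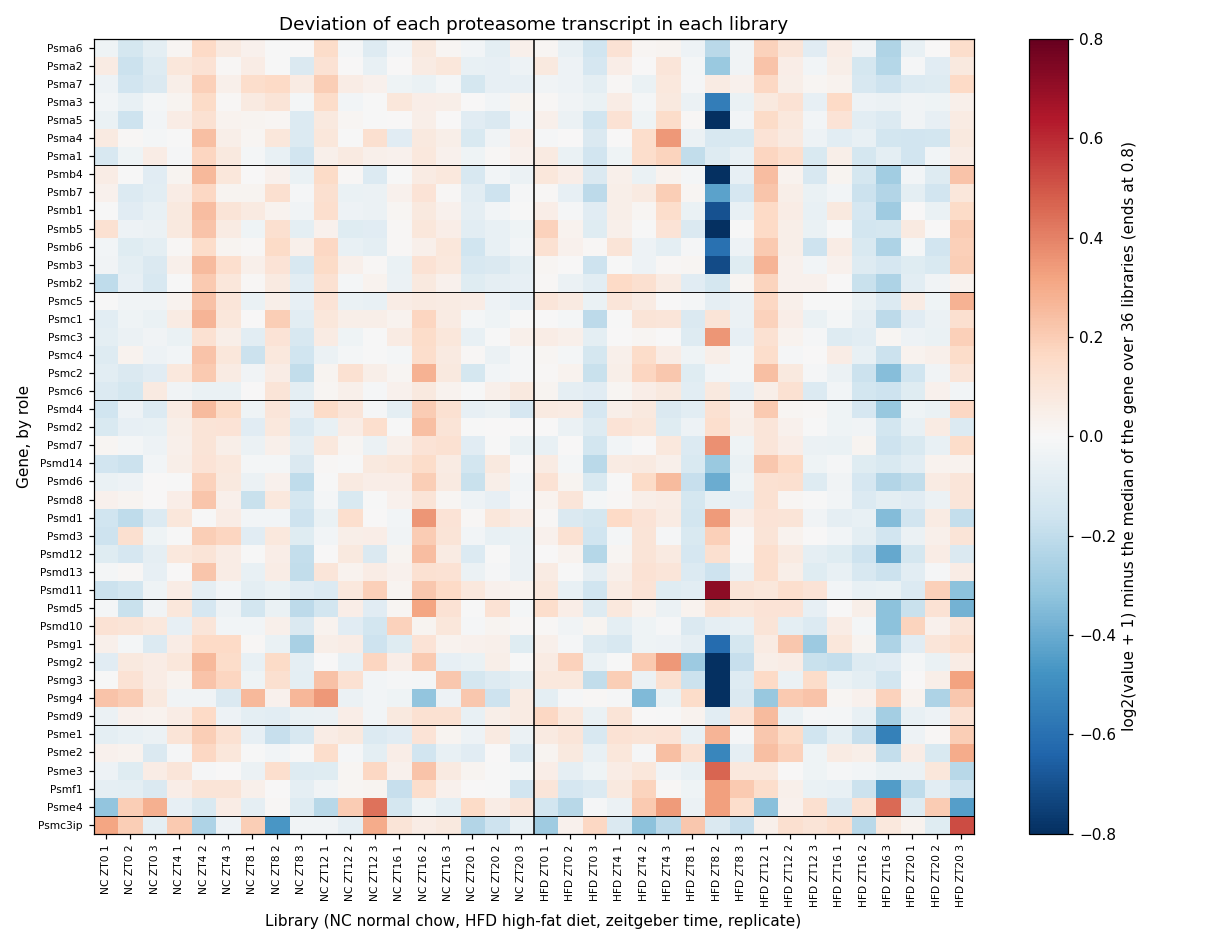
Deviation of each member in each library, as log2(value + 1) minus the gene's median over 36 libraries, with colours ending at 0.8 in either direction. Rows are genes by role and columns are libraries, chow on the left. The column of high-fat replicate 2 at ZT 8 is dark blue for beta subunits, where the median is -0.70, and for the Psmg chaperones, and high-fat replicate 3 at ZT 16 is pale blue for 40 of 43 proteasome genes.

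**Figure D3:**
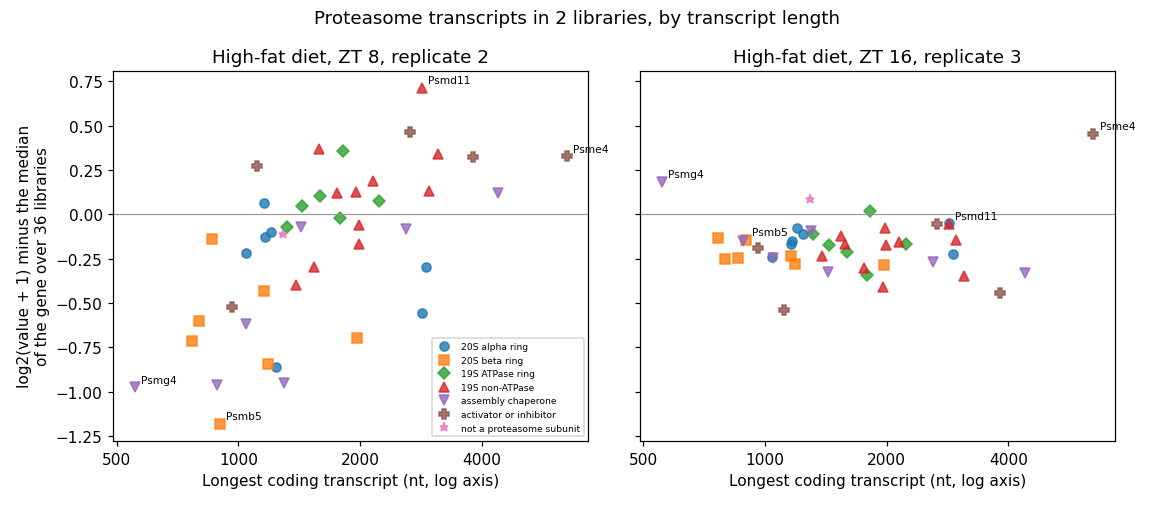
The same deviation plotted against the length of the longest coding transcript (nt, log axis) in high-fat replicate 2 at ZT 8 (left) and high-fat replicate 3 at ZT 16 (right). Each symbol is a member, by role. On the left the values run from -1.18 for Psmb5 to 0.71 for Psmd11 with short transcripts lowest, and on the right most values lie below 0.

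The first comparison asked which members followed a 24 h rhythm. The values of Psma7, an alpha ring subunit (chr2:180036374-180042433, minus strand, GRCm38), show the one that passed. Under chow its 3 libraries stood at 202, 188 and 192 at ZT 0, at 215, 238 and 214 at ZT 4, and at 230, 233 and 218 at ZT 8. They stood at 239, 217 and 213 at ZT 12, at 203, 201 and 206 at ZT 16, and at 189, 199 and 199 at ZT 20. The libraries from ZT 4 to ZT 12 were all above those of the other 3 times. Psma7 is shown because it passed, which favours such a separation. Under high-fat diet they stood at 204, 202 and 198 at ZT 0, at 210, 200 and 221 at ZT 4, and at 206, 218 and 214 at ZT 8. They stood at 233, 215 and 211 at ZT 12, at 213, 190 and 186 at ZT 16, and at 193, 194 and 233 at ZT 20. There the groups overlapped, with single high libraries at ZT 16 and ZT 20. The high library at ZT 20, replicate 3, was also the most shifted towards short transcripts. The highest chow libraries at ZT 4 (replicate 2) and ZT 12 (replicate 1) were shifted the same way. In both diets together, Psma7 rose and fell by a fitted peak-to-trough difference of 0.18 ± 0.040 (SE) on the log2(value + 1) scale, or 1.13-fold, and its fitted peak fell at ZT 8.58 ± 0.849 (36 libraries; limma, Benjamini-Hochberg adjusted p = 0.0234).

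Psma7 was the only one of 44 members called in both diets together at an adjusted p under 0.05, the threshold used throughout, where 2.18% of all tested rows were called. At an unadjusted p under 0.05 there were 3 members (6.82%), Psma7, Psmf1 and Psmd10, against 13.1% of all rows, and the members' median peak-to-trough difference was 0.07 against 0.14 over all rows. The call of Psma7 held when any 1 of the 36 libraries was left out (limma adjusted p from 0.00123 to 0.0493). With the length shift of each library as a covariate the limma adjusted p of the call was 0.00122. The call did not hold with median-of-ratios scaling (adjusted p = 0.359), with values as deposited (0.338), or in a test of any difference among the 6 time points (0.0814).

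Psmf1, an inhibitor of the 20S core that also takes part in proteasome transport (chr2:151715812-151744186, minus strand), was next, and was chosen for description after its values were seen. Under chow it ranged from 21.1 to 26.8 with no clear order of the groups. Under high-fat diet it stood at 25.9, 21.9 and 22.3 at ZT 0, at 25.6, 27.5 and 24.4 at ZT 4, and at 23.6, 30.6 and 28.1 at ZT 8. It stood at 26.8, 24.9 and 23.3 at ZT 12, at 23.1, 21.4 and 17.5 at ZT 16, and at 20.9, 22.8 and 21.5 at ZT 20. The lowest value was in the striatum-rich library and the highest in the library that stood apart by length. The difference in both diets together was 0.23 ± 0.058 (SE), peaking at ZT 6.92 (limma adjusted p = 0.0633). Psmf1 was called when the length shift of each library (adjusted p = 0.0233) or neuronal and oligodendrocyte markers (0.0305) entered as covariates. It was also called without chow replicate 3 at ZT 8 (0.0404) or without chow replicate 2 at ZT 16 (0.0269), so that the count became 2. Psmd10 (gankyrin), a 19S chaperone, had a difference of 0.12 with a fitted peak at ZT 21.4 (adjusted p = 0.325).

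**Figure D4:**
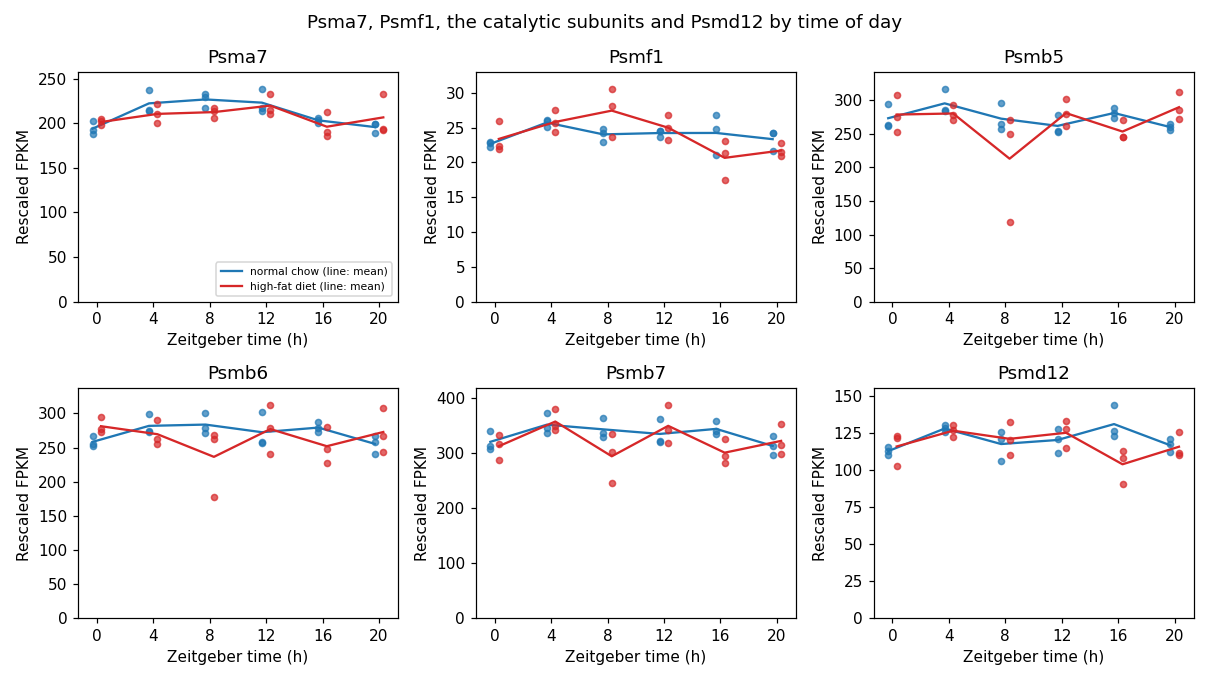
Rescaled FPKM by zeitgeber time for Psma7, Psmf1, the catalytic subunits Psmb5, Psmb6 and Psmb7, and Psmd12, with axes from 0. Points are libraries, 3 per diet and time, and lines join the means (blue for chow, red for high-fat diet). Psma7 under chow is above 213 from ZT 4 to ZT 12 and below 207 at the other times, and the low red points of Psmb5, Psmb6 and Psmb7 at ZT 8 are 1 library.

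In the 18 chow libraries alone, Psma7 rose and fell by 0.25 ± 0.047 (SE) on the log2(value + 1) scale, or 1.19-fold, and peaked at ZT 8.64 ± 0.708 (limma adjusted p = 0.0350). It was again the only 1 of 44 members called, where 0.845% of all rows were called, and 2 members (4.55%) passed an unadjusted p under 0.05 against 18.2% of all rows. The other was Psmd11, whose fitted peak was at ZT 15.5 (0.20 ± 0.064, adjusted p = 0.213). This chow call was lost when 1 library was left out in 10 of 18 cases. The adjusted p was 0.0563 and 0.0565 without replicates 2 and 3 at ZT 0, and 0.0553 without replicate 3 at ZT 4. It was 0.0745 and 0.0814 without replicates 1 and 2 at ZT 8, and 0.0639, 0.0506 and 0.0616 without replicates 1, 2 and 3 at ZT 16. It was 0.0699 and 0.0582 without replicates 1 and 2 at ZT 20. With the replicate number as a block it was 0.0518.

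In the 18 high-fat libraries, 0 of 44 members were called by limma, where 0.0728% of all rows were, and 2 (4.55%) had an unadjusted p under 0.05 against 8.64% of all rows. The smallest p-values belonged to Psmf1 (0.37 ± 0.090, peak at ZT 6.66, adjusted p = 0.350), Psmd1, a scaffold of the 19S base (0.27 ± 0.090, ZT 6.91, adjusted p = 0.536), and Psmd11 (0.30 ± 0.125, ZT 8.62, adjusted p = 0.587). Psma7 was not among them. Psmf1, Psmd1 and Psmd11 had their highest high-fat value in replicate 2 at ZT 8, the library that stood apart by length. There Psmd1 stood at 160, against 114 and 131 in the other replicates, and Psmd11 at 115, against 65.6 and 74.7. The difference in rhythm between the diets, tested by the diet by cosine terms, also called 0 of 44 members (0% of all rows). It had 4 at an unadjusted p under 0.05 (9.09%, against 13.2% of all rows). These were Psmd5 (limma adjusted p = 0.357), Psmd1 (0.357), Psmd11 (0.359) and Psmf1 (0.364). For Psma7 the adjusted p of the difference was 0.499, so a call in one diet and not in the other does not show that its rhythm differed.

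The catalytic subunits had no call in any rhythm test. Their peak-to-trough difference in both diets together was 0.15 ± 0.102 (SE) for Psmb5, 0.08 ± 0.061 for Psmb7 and 0.02 ± 0.070 for Psmb6 on the log2(value + 1) scale (limma adjusted p = 0.705, 0.727 and 0.981). In a test of any difference among the 6 times in both diets together, 0 of 44 members were called by limma against 1.93% of all rows. There, 11 had an unadjusted p under 0.05 against 14.6% of all rows. The smallest p-values were those of Psma7 (adjusted p = 0.0814) and the beta subunit Psmb2 (0.0909). Psmb2 averaged 206 ± 15.4 (SD, n = 3) at ZT 4 and 175 ± 8.42 at ZT 0 under chow, and 208 ± 6.85 and 186 ± 6.05 under high-fat diet.

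The second comparison was of diet. Over all 6 times, 0 of 44 members were called between high-fat diet and chow by limma, where 0.0132% of all rows were, and 0 had an unadjusted p under 0.05, against 2.56% of all rows. The log2 difference was below 0 for 36 of 44 members, against 50.5% of all rows, but small, with a median of -0.03 and a range from -0.11 to 0.03. All 95% intervals of the members lay within -0.27 to 0.16. The smallest p-values were those of Psmg2 (-0.11 ± 0.058, SE), Psmc1 (-0.05 ± 0.033) and Psma3 (-0.06 ± 0.037), all with a limma adjusted p of 1. The catalytic subunits differed by -0.06 ± 0.070 (Psmb5), -0.05 ± 0.050 (Psmb6) and -0.06 ± 0.041 (Psmb7).

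By time of day, limma called 0 of 44 members at each of the 6 times. At ZT 0, ZT 4, ZT 12 and ZT 20 there were also 0 members at an unadjusted p under 0.05, against 3.9%, 1.5%, 0.975% and 3.99% of all rows. The share of all rows called was 0% at each time except ZT 12, where it was 0.00659%. The number of members below 0 under high-fat diet was 11 at ZT 0 (52.6% of all rows), 28 at ZT 4 (35.8%), 10 at ZT 12 (58.5%) and 15 at ZT 20 (64.3%), so it went in no constant direction.

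At ZT 16 most proteasome transcripts were lower under high-fat diet, each by little. Psmd12, a 19S lid subunit (chr11:107479484-107504362), stood at 113, 108 and 90.7 under high-fat diet and at 123, 144 and 126 under chow. Psmc2, an ATPase of the 19S base (chr5:21785283-21803787), stood at 132, 121 and 108 against 138, 166 and 144. Psmd13, another lid subunit (chr7:140881968-140898643), stood at 103, 98.1 and 95.0 against 110, 117 and 116. In none of these genes did the diets overlap, but they were chosen as the members with the smallest p, which favours such a separation. The share of all rows without overlap was not counted. The log2 differences were -0.34 ± 0.088 (SE) for Psmd12, -0.31 ± 0.086 for Psmc2 and -0.21 ± 0.067 for Psmd13 (limma adjusted p = 0.284, 0.285 and 0.301), so none was called.

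The log2 difference at ZT 16 was below 0 for 41 of 44 members, against 55% of all rows, with a median of -0.16 against -0.02. That count included all 6 ATPases, 11 of 11 non-ATPase subunits, 7 of 7 alpha and 7 of 7 beta subunits. At an unadjusted p under 0.05 there were 18 members (40.9%), all lower, against 10.7% of all rows in either direction and 8.17% of all rows lower. They included 8 of 11 non-ATPase subunits, 3 of 6 ATPases, 2 of 7 beta subunits, 3 of 7 chaperones and 2 of 5 caps and inhibitors. No alpha subunit was among them. Summed over 17 subunits, the 19S particle stood at 2582, 2488 and 2332 under high-fat diet and at 2683, 2976 and 2798 under chow, without overlap. How often such sums or single rows separate by diet was not counted. The lowest sum, 2332, was that of the striatum-rich library. The 20S sums overlapped, at 3475, 3113 and 2945 against 3383, 3553 and 3500.

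Some marker sums also differed between the diets at ZT 16. Summed neuronal markers ran from 4591 to 5048 under high-fat diet and from 5452 to 6544 under chow, with 9 of 10 genes below 0 and a median log2 difference of -0.27. Astrocyte markers ran from 3303 to 3653 and from 2278 to 3025, with 0 of 8 genes below 0 and a median of 0.31. Of these genes, 5 neuronal and 4 astrocyte ones had an unadjusted p under 0.05 in limma, against 10.7% of all rows, and none was called. In the microglial, striatal, liver and blood lists 0 genes were below 0 (medians 0.30, 0.76, 0.95 and 0.16), but their sums overlapped between the diets. Oligodendrocyte and vascular lists had 4 of 9 and 6 of 10 genes below 0. Summed SCN markers ran from 837 to 1142 and from 1606 to 2133, but the list did not move as a whole. Only 6 of its 12 genes were below 0, with a median of 0.02 and 0 genes at an unadjusted p under 0.05, and Avp had the largest negative value (-0.96 ± 0.724, SE). None of the 12 SCN, 10 neuronal or 8 astrocyte genes was at 0 in any library. With neuronal and oligodendrocyte markers as covariates, 11 members had an unadjusted p under 0.05 (11.3% of all rows) and 41 were below 0 (40.2%). The first count was 3 (5.43% of all rows) without high-fat replicate 3, which was rich in striatal transcripts, and 5 (3.66%) without chow replicate 2, with 40 and 42 members below 0. Without both striatum-rich libraries it was also 3 (5.57%). It was 6 (10.2%) with median-of-ratios scaling, with 41 below 0. Other settings raised the count. Among them it was 26 (17.9%) with the length shift as a covariate and 23 (14.2%) without high-fat replicate 2 at ZT 8. It was 21 (15.5%) without high-fat replicate 1 at ZT 16 and 19 (20.2%) with values as deposited. The part of tissue composition in the difference was not tested further.

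**Figure D5:**
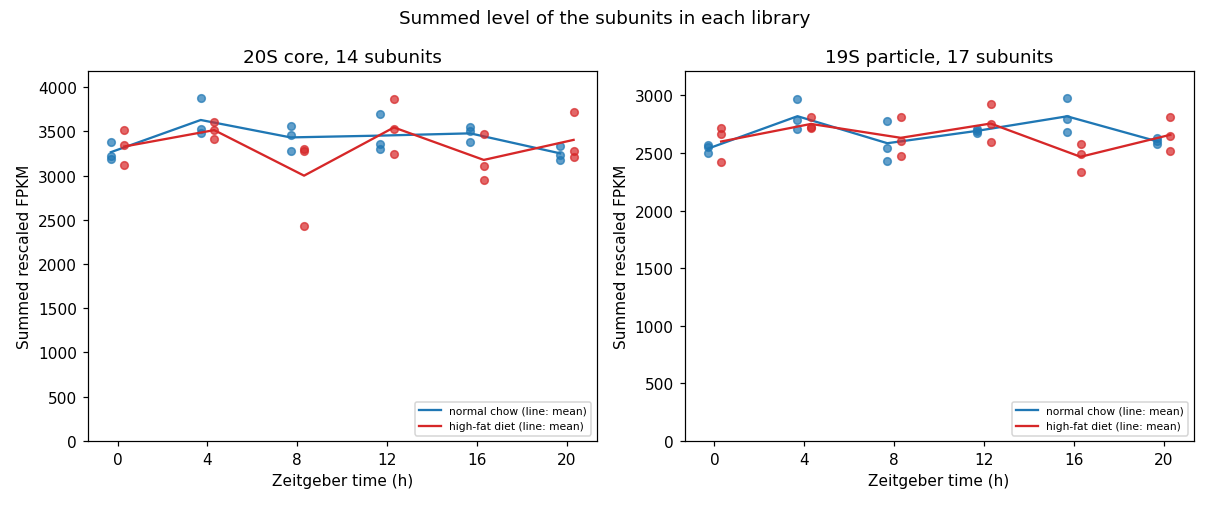
Summed rescaled FPKM of the 14 subunits of the 20S core (left) and 17 subunits of the 19S particle (right) by zeitgeber time, with axes from 0. Points are libraries, 3 per diet and time, and lines join the means. At ZT 16 the 3 high-fat libraries lie between 2332 and 2582 for the 19S particle, below the 3 chow libraries of that time (2683 to 2976). How often such a separation occurs was not counted. The low 20S point at ZT 8 (2425) is high-fat replicate 2.

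At ZT 8 the members split by role with all high-fat libraries included, a split seen within high-fat replicate 2 only. The 20S chaperone Psmg2, chosen for its small p, stood at 27.9, 17.3 and 30.1 under high-fat diet and at 33.0, 38.3 and 32.7 under chow. Psmb5 (chr14:54614119-54618022) stood at 250.3, 119 and 270.1 against 265, 297 and 257, and these overlapped. The log2 differences were -0.48 ± 0.129 (SE) for Psmg2, -0.27 ± 0.088 for Psma3 and -0.42 ± 0.142 for the 20S chaperone Psmg3 (limma adjusted p = 0.273 for each), and -0.44 ± 0.162 for Psmb5 (adjusted p = 0.273). The log2 difference was below 0 for 7 of 7 beta and 7 of 7 alpha subunits, but for 3 of 6 ATPases and 4 of 11 non-ATPase subunits. In high-fat replicate 2 the median deviation from each gene's own median was -0.49 for 20S and 0.10 for 19S subunits. Both medians were below 0 in replicate 1 (-0.03 and -0.11) and in replicate 3 (-0.05 and -0.03). At an unadjusted p under 0.05 there were 12 members (27.3%), against 16.1% of all rows. Of these 11 were lower, against 5.25% of all rows, and Psmd11 was higher, at 0.32 ± 0.130.

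The count at an unadjusted p under 0.05 at ZT 8 rested on high-fat replicate 2, the library with low short transcripts. Without it the count was 1 (2.31% of all rows), and with the length shift as a covariate it was also 1 (4.56%). The direction remained without that library, but with the length covariate it was close to that of all rows. Without that library 31 members were below 0, against 38.2% of all rows. The log2 difference was then -0.25 for Psmg2 and -0.07 for Psmb5 (limma adjusted p = 1 for both). With the length covariate 25 of 44 members were below 0, against 56% of all rows. Without high-fat replicate 1, 19 members had an unadjusted p under 0.05, against 29.7% of all rows, and limma called 10, where it called 1099 of all rows (7.24%). Of these 10, Psmd11 was higher and the others lower under high-fat diet, among them Psmb5 (-0.60, adjusted p = 0.0391) and Psmg4 (-0.73, adjusted p = 0.0350). The median over all rows at this time was 0.12, and median-of-ratios scaling moved it to -0.01, with the members' median at -0.05 and -0.18. Of the 44 members, 27 were below 0, against 29.1% of all rows, and 37 with median-of-ratios scaling, against 51.5%.

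Other genes of the pathway, from lists chosen with earlier results of these data known, are given for both diets together. There, 2.18% of all rows were called and 13.1% had an unadjusted p under 0.05 by limma. In the list of proteasome assembly and accessory factors, limma called 0 of 10 genes tested, and 2 had an unadjusted p under 0.05. These were Zfand5, an activator of the 26S proteasome (0.21, ZT 9.66, adjusted p = 0.225), and the deubiquitinase Uchl5 (0.13, ZT 3.21, adjusted p = 0.228). In the list of ubiquitin supply and delivery, 0 of 14 were called, with 1 at an unadjusted p under 0.05, and Ufd1l and Nploc4, partners of the unfoldase Vcp, had the smallest p (adjusted p = 0.269 and 0.471). In the list of regulators of proteasome genes, 0 of 10 were called, with 1 at an unadjusted p under 0.05. Keap1 (0.11, ZT 17.1, adjusted p = 0.286) and Mafg (0.27, ZT 16.6, adjusted p = 0.488) led it, and Nfe2l1 had 0.06 (adjusted p = 0.809).

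Rhythms that passed stood in neighbouring lists, against 2.18% of all rows called. Of 7 genes of the immunoproteasome and peptide loading, 1 was called, the peptide transporter Tap1 (0.32 ± 0.075, SE, peak at ZT 5.52, limma adjusted p = 0.0371), while Psmb8 (0.29, adjusted p = 0.350) and Psmb9 (0.40, adjusted p = 0.348) were not. Of 18 heat shock chaperones, 6 were called, all with peaks between ZT 19.1 and ZT 22.0. Hspa1b had the smallest p (0.95 ± 0.133, ZT 19.6, adjusted p = 0.000127), followed by Hspa1a, Chordc1, Ahsa1 and Hsph1. Of 17 core clock genes, 9 were called. The clock output factor Dbp swung 2.29-fold and peaked at ZT 9.54 ± 0.272 (SE, limma adjusted p = 3.08e-11), followed by Nr1d1, Ciart, Cry1 and Nr1d2. The log2 difference for Psma7, 0.18, was smaller than that of each named clock gene and heat shock chaperone of these lists.

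Between the diets over all times, 0 genes of each of these 6 lists were called by limma, against 0.0132% of all rows. An unadjusted p under 0.05 was reached by 1 gene of the assembly list and 0 of the others, against 2.56% of all rows. At ZT 16, where 10.7% of all rows had an unadjusted p under 0.05 and 55% were below 0, the lists differed. Of the ubiquitin supply and delivery genes, 10 of 14 had an unadjusted p under 0.05 and 11 were below 0, with a median log2 difference of -0.21. Of the heat shock chaperones, 14 of 18 did and 17 were below 0 (median -0.31), and of the assembly and accessory factors 5 of 10 did and 9 were below 0 (-0.14). The regulators had 1 of 10 with 8 below 0 (-0.12), the core clock 1 of 17 with 6 below 0 (0.02), and the immunoproteasome list 0 of 7 with 3 below 0 (0.02). None was called by limma, and these values come from the same libraries as those of the members.

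Counting by strand was not stated, although the library kit preserves it. Of the 44 members, 16 overlap a gene annotated on the opposite strand and 9 one on the same strand (GENCODE M21), so reads could be shared for those. Psma7, Psmb6, Psmf1, Psmc2 and Psmd11 overlap no other annotated gene. Pseudogenes named after the catalytic subunits are annotated, 2 for Psmb6, 1 for Psmb5 and 1 for Psmb7. Whether reads were shared with them was not tested.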

How the data were processed

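RNA of 36 libraries was sequenced after an Illumina TruSeq stranded kit, per the labels' protocols. Trimmomatic, TopHat and Cufflinks, and builds mm10 and GRCm38, are named in the submitters' processing notes. Their versions and options are not given in the sources used here. The deposited values were read as FPKM because Cufflinks is named and the values fit that unit. Each library was rescaled to sum to 1000000 over 24883 rows, and log2(value + 1) was tested with limma 3.58.1 (mean-variance trend, R 4.3.3) in the 15173 rows with a mean of at least 1. Differences are on that scale, which understates those of low genes. Rhythm was tested with cosine and sine terms of 24 h, diet as a contrast with time point as a factor or of 12 group means. P-values, two-sided, were adjusted by the Benjamini-Hochberg method over all tested rows. The fits were also run on simulated data with noise drawn independently for each row and library. Shifts shared by the rows of a library were not simulated.

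Members and gene lists were chosen with earlier results of these data known. Named were the catalytic subunits, called members (or the 3 with the smallest p), the highest and lowest member of each role, and called list genes (at most 5) or the 2 with the smallest p. Replicates were compared across libraries: none were identical (highest r 0.982). Alternatives were another scaling, values as deposited, another pseudocount, no filter, no trend, a replicate block, marker covariates, any difference among times, and leaving libraries out. A length covariate and leaving out a pair of high-fat or of striatum-rich libraries were chosen after seeing the data.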

Additional observations from a re-analysis of the deposited data

How the results depend on the processing

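The number of members called for rhythm in both diets together, 1, became 0 with median-of-ratios scaling, values as deposited or a test of any difference among times, and 2 with marker covariates or with the length covariate. It was between 1 and 2 when 1 library was left out. In chow alone the count of 1 became 0 with median-of-ratios scaling, values as deposited, a test of any difference among times, no mean-variance trend (adjusted p of Psma7 = 0.0562) or the replicate block, and was between 0 and 1 with 1 library left out. For the high-fat rhythm, the rhythm difference, diet over all times and diet at ZT 0, ZT 4, ZT 12, ZT 16 and ZT 20 the count was 0 under every alternative run. At ZT 8 it ranged from 0 to 10 with 1 library left out and was otherwise 0. The causes were not tested. Whether the replicate numbers pair samples of the 2 diets was not settled. Deviations of same-numbered libraries correlated above 0.1 in 9 of 18 pairs (median 0.103, from -0.276 to 0.319). The correlations were 0.311, 0.285 and 0.319 at ZT 12, but -0.244, 0.114 and -0.276 at ZT 0. The replicate block left the count in both diets together at 1 and changed no other call than that in chow. Reads per library are not given, so what depth limits could not be computed.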
